A study of Rattus norvegicus with 6 samples.

Results

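The genes that open the cell cycle were followed in rat primary Schwann cells, the glia of peripheral nerves, after stimulation with soluble Neuregulin1 (NRG1). The 10 genes were chosen by symbol, with earlier results of these data known, and all 10 were among the 17327 genes counted. They encode the D-type cyclins (Ccnd1, Ccnd2, Ccnd3), the E-type cyclins (Ccne1, Ccne2), the kinases that D cyclins activate (Cdk4, Cdk6) and inhibitors of these kinases (Cdkn1a, Cdkn1b, Cdkn2c). All 10 passed the filter on low counts, as did 9740 genes in total.

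The cells came from sciatic nerves of adult Wistar rats. The 3 cultures, prepared independently, each gave 1 mock and 1 NRG1 sample, which share a replicate number, so that there were 3 mock and 3 NRG1 samples. Before the experiment the labels put the cells in medium with 10% serum, 10 µM forskolin and 63 ng/mL glial growth factor, itself a neuregulin. They were starved for 18 h in medium with 2% serum and 10 µM forskolin, a drug that raises cAMP, and then received 10 nM NRG1β1 or its buffer (PBS with bovine serum albumin) for 6 h in the same medium. Forskolin and 2% serum were thus present in the mock samples too, and all samples came from confluent cells grown without axons.

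Entry into the cycle is decided in G1. D cyclins, whose genes respond to growth factors, join Cdk4 or Cdk6 and phosphorylate the retinoblastoma protein, which then releases E2F factors. E2F factors switch on the E cyclins and the genes of DNA replication. The INK4 inhibitors, p18 from Cdkn2c among them, block Cdk4 and Cdk6, while p21 from Cdkn1a and p27 from Cdkn1b act mainly on the complexes of Cdk2. In the nerve, Schwann cells leave the cycle when they myelinate and re-enter it after injury, and neuregulin together with raised cAMP is a classical mitogen for them in culture.

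Counts on genes ranged from 6821590 to 15475018 per sample. Levels are given as CPM, that is, counts divided by the TMM-adjusted library size, and a level of 3 counts, taken as the smallest that the depth could show, was between 0.194 and 0.440 CPM. Both samples of replicate 1 stood apart from the other 4 on the first principal component, which held 68.0% of the variance. Fibroblast markers differed between the cultures. Dcn was counted at 611 CPM in mock 1 and 427 CPM in NRG1 1 and at 0 in the other 4 samples, and Thy1 at 1268 and 1143 CPM against 0 in the other 4. Col1a1, in contrast, was high in all samples. It was counted at 28250, 21494 and 13620 CPM in mock samples 1, 2 and 3 and at 32087, 13413 and 13754 CPM in NRG1 samples. Col3a1 was at 22402, 838 and 442 CPM in mock and at 23218, 279 and 170 CPM in NRG1 samples. The summed level of 10 Schwann cell markers was lower in replicate 1, with 7163 CPM in mock and 5144 CPM in NRG1, than in the other samples, with 13498 to 18659 CPM. Of these 10 markers, 9 were tested, 5 fell (S100b, Cdh19, Pmp22 and Egr2 among them) and none rose, and Gap43 was near 0 in all samples. The 8 fibroblast markers summed to between 14064 and 53433 CPM in mock and between 13693 and 57725 CPM in NRG1 samples, of which 3 were tested and none was called by edgeR at an adjusted p of 0.01, and Col1a2 was at or near 0 throughout. Of these 3, Col3a1, a fibrillar collagen gene, was close to the threshold (log2 fold change -0.98, adjusted p = 0.012), with log2 ratios of 0.05, -1.59 and -1.38 in pairs 1, 2 and 3. The summed macrophage and endothelial markers stayed at or below 15.2 CPM in all samples, with Ptprc, Adgre1, Pecam1 and Cdh5 at 0, and 4 perineurial markers summed to between 108 and 197 CPM. Both perineurial markers that were tested were called in edgeR, Itgb4 lower with NRG1 (log2 fold change -1.44, adjusted p = 4.6e-06) and Slc2a1 higher (0.59, adjusted p = 0.0045). The part of these markers in the results was not tested. The ratios of pairs 2 and 3, where Dcn, Thy1 and Lum were at 0 but Col1a1 was not, are given for each of the 10 genes.

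The upstream sequence of 6 of the 10 genes was held in the RefSeq promoter windows, which span 250 bases before to 50 bases after an annotated start. Ccnd1, Ccnd2, Ccne2 and Cdk6 had none. Of the 6 windows, 2 are shown, on the GRCr8 build and in the direction of the gene, for 1 kinase gene that rose and 1 D cyclin gene that did not pass the test. The window of Cdk4 (plus strand, chr7:64771203-64771502) has the E-box CACGTG in capitals, the core site of Myc and its relatives. The window of Ccnd3 (minus strand, chr9:20897826-20898125) has in capitals TGACG, the core of the cAMP response element.
Cdk4: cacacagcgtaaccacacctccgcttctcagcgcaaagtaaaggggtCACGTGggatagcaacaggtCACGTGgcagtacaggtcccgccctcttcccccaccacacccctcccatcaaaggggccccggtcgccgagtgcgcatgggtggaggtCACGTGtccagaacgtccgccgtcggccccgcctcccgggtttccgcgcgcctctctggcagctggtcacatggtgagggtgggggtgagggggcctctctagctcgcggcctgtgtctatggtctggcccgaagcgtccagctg
Ccnd3: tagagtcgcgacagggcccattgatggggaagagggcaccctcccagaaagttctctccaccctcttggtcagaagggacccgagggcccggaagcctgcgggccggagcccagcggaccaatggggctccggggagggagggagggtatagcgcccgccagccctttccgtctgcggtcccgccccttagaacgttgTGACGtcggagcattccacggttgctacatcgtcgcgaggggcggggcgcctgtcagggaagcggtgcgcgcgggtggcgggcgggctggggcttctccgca
The 3 E-boxes of Cdk4 start 203, 183 and 95 bases before the start. Searched on both strands, 6.42% of all 33469 windows held at least 1 CACGTG and 0.0568%, or 19 windows, held at least 3. TGACG was common, with at least 1 in 21.2% of the windows. None of the 6 windows held the full element TGACGTCA, the E2F motif TTTCCCGC, TTTCGCGC, TTTGCCGC or TTTGGCGC, the AP-1 motif TGANTCA or the forkhead motif GTAAACA. A match is only a match of letters, and the reads had been mapped to another build, rn5.

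The first question was which G1 genes NRG1 changes within 6 h. The cyclin D1 gene Ccnd1 rose 2.62-fold, Cdk4 rose 1.45-fold, and none of the other 8 genes passed the test. In edgeR's quasi-likelihood test with the replicate number as a block, 2 of the 10 genes rose at an adjusted p of at most 0.01, beside 6.31% of all genes tested, and 0 fell, beside 5.51% (11.8% in both directions). At an unadjusted p under 0.05, 2 of the 10 were lower with NRG1 (Cdkn1a and Cdkn1b). In either direction 4 of the 10 had such a p, beside 3479 of the 9740 genes tested. DESeq2 and limma-voom with the block also gave 2 risen and 0 fallen. Over all genes DESeq2 gave 570 and 384 of 13129, and limma-voom 646 and 563 of 9740. With a log2 fold change over 1 as well, 1 of the 10 rose (Ccnd1), beside 1.56% of all genes, and 0 fell below -1, beside 1.91%. The median log2 fold change of the 10 genes was -0.03, as was that of all genes tested, and the range was from -0.54 to 1.39. In these bulk samples a change in the share of cells that express a gene and a change of its RNA per cell cannot be told apart.

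**Figure D1:**
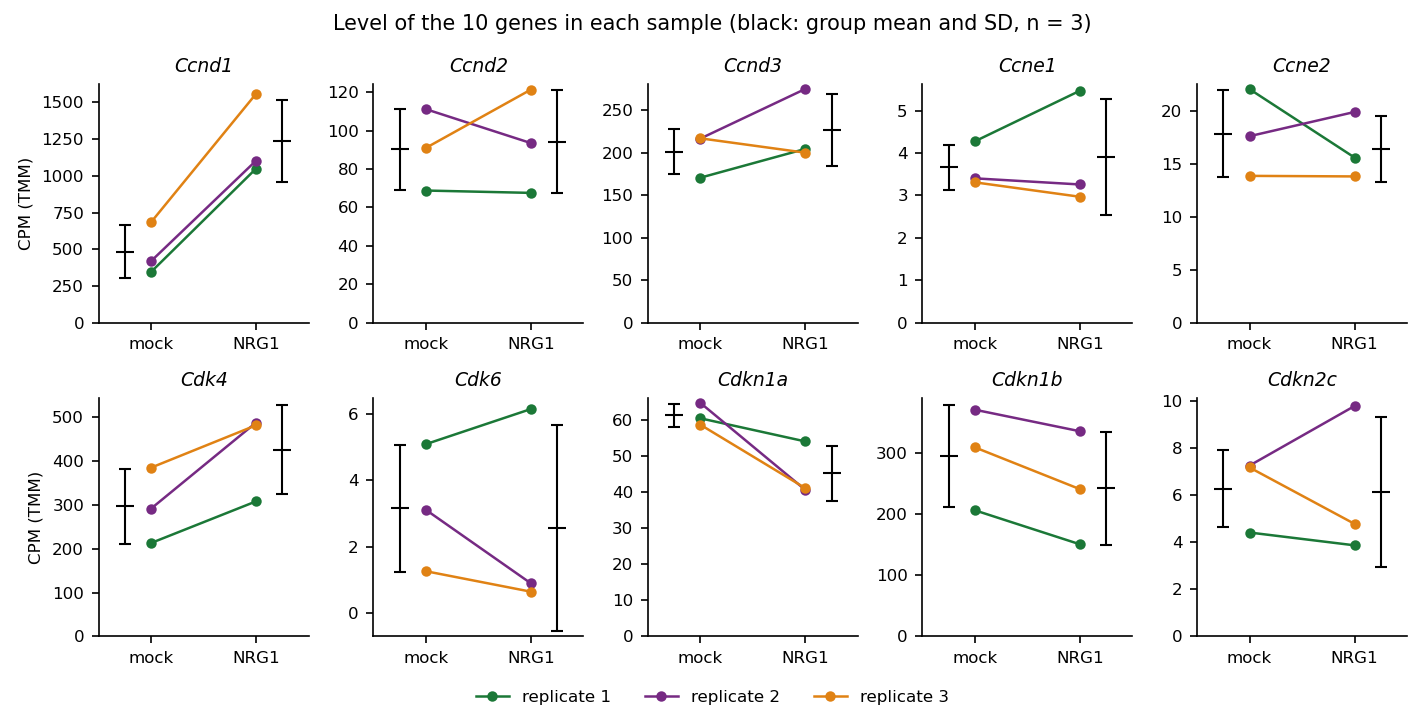
Level of each of the 10 genes in CPM (vertical axes start at 0, or below it where the SD reaches below 0) in mock and NRG1 samples, with lines joining the samples of 1 replicate and black marks for the group mean and SD of 3 samples. All 3 lines slope up for Ccnd1 and Cdk4 and down for Cdkn1a and Cdkn1b, and replicate 1 is the lowest for Ccnd2 and Cdk4 and the highest for Cdk6.

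Ccnd1 encodes cyclin D1, the D cyclin best known as a growth factor sensor. It was counted at 347, 421 and 686 CPM in mock samples 1, 2 and 3 and at 1050.4, 1104 and 1559 CPM in NRG1 samples 1, 2 and 3. The lowest NRG1 sample was above the highest mock sample, and the groups did not overlap, as for 10.2% of all genes tested. The mean over 3 samples was 485 ± 178 CPM (SD) without NRG1 and 1238 ± 279 CPM (SD) with it. The log2 fold change was 1.39 (SE 0.13, 95% interval 1.10 to 1.68, edgeR adjusted p = 1.2e-05), at position 35 of the 9740 genes by p-value. Replicates 1, 2 and 3 had log2 ratios of 1.60, 1.39 and 1.18, and without replicate 1 the fitted log2 fold change was 1.29. Ccnd1 passed in each fit with 1 replicate left out. In the fit with no replicate block its adjusted p was 0.20.

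Ccnd2 and Ccnd3 encode the other two D cyclins, which bind the same kinases. Ccnd2 was counted at 68.8, 111 and 90.9 CPM in mock samples 1, 2 and 3 and at 67.6, 93.5 and 121 CPM in NRG1 samples. The 2 groups covered nearly the same range, and the pairs moved in different directions, with log2 ratios of -0.03, -0.25 and 0.41. The log2 fold change was 0.05 (95% interval -0.24 to 0.34, edgeR adjusted p = 0.81), an interval that lies below that of Ccnd1. Ccnd3 was counted at 171, 217 and 217 CPM in mock samples and at 205, 275 and 200.3 CPM in NRG1 samples, and the groups overlapped. On the log2 scale the difference was 0.16 (95% interval -0.11 to 0.43, edgeR adjusted p = 0.39), with pair ratios of 0.26, 0.34 and -0.12. The rat annotation lists 1 pseudogene named after Ccnd3, and how reads that map to more than 1 place were counted was not checked.

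How the D cyclins changed against each other was read within each library, where scaling between libraries cancels. Ccnd1 took 59.2%, 56.2% and 69.0% of the reads on the 3 D cyclin genes in mock samples 1, 2 and 3, which became 79.4%, 75.0% and 82.9% with NRG1. The share was higher with NRG1 in each pair, by 20.2, 18.8 and 13.9 percentage points. Ccnd2 took 11.7%, 14.8% and 9.15% in mock and 5.11%, 6.35% and 6.45% in NRG1 samples, and Ccnd3 took between 21.9% and 29.1% in mock and between 10.7% and 18.7% in NRG1 samples. The summed level of the 3 genes was 587, 749 and 994 CPM in mock and 1323, 1473 and 1881 CPM in NRG1 samples. The log2 ratio of Ccnd1 to Ccnd2 counts was higher with NRG1 by 1.34 ± 0.50 (SD, n = 3 pairs). For each of these measures the two-sided exact paired permutation test gave p = 0.25, the smallest that 3 pairs allow. Shares are of reads and are not corrected for the length of the transcripts.

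**Figure D2:**
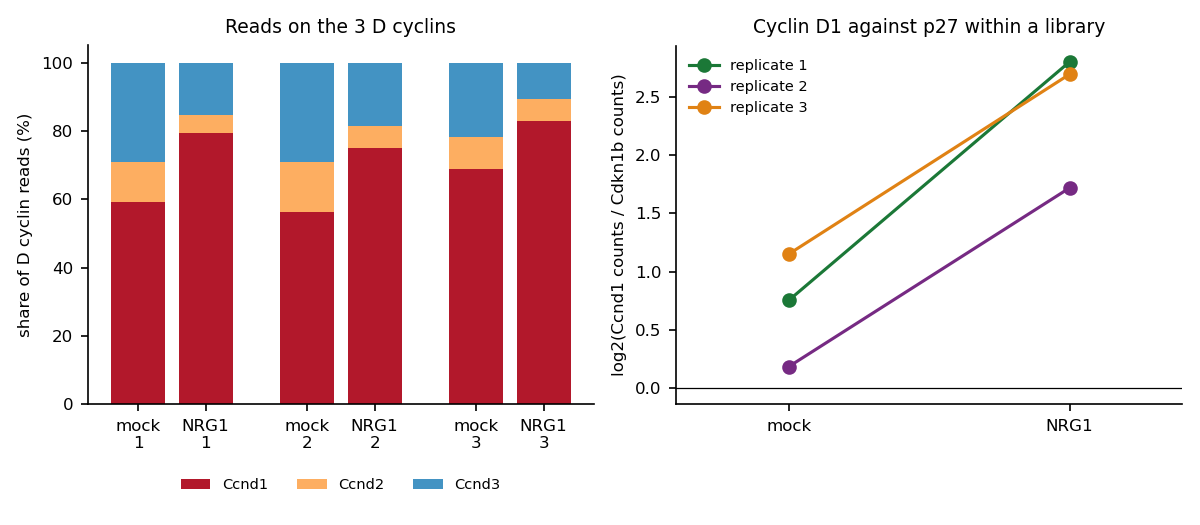
Left, percentage of the reads on Ccnd1, Ccnd2 and Ccnd3 that each gene takes in each of the 6 samples (stacked bars from 0 to 100%); right, log2 ratio of Ccnd1 to Cdkn1b counts in mock and NRG1 samples, with lines joining the samples of 1 replicate. The Ccnd1 part is between 56.2% and 69.0% in mock and between 75.0% and 82.9% in NRG1 samples, and all 3 lines on the right slope up.

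Cdk4, the partner kinase of D cyclins, was counted at 213, 292 and 385 CPM in mock samples 1, 2 and 3 and at 308, 488 and 481 CPM in NRG1 samples. The groups overlapped because the mock sample of replicate 3 was above the NRG1 sample of replicate 1, while the NRG1 sample was the higher one within each of the 3 pairs, as for 25.9% of all genes tested. The mean over 3 samples was 296 ± 86.0 CPM (SD) in mock and 426 ± 102 CPM (SD) in NRG1, and the fitted log2 fold change 0.53 (SE 0.13, 95% interval 0.26 to 0.80, edgeR adjusted p = 0.0080). The pair ratios were 0.53, 0.74 and 0.32 on the log2 scale. The call was close to the threshold and was lost without replicate 1 (log2 fold change 0.53, adjusted p = 0.022), without replicate 2 (0.43, adjusted p = 0.027) and without replicate 3 (0.66, adjusted p = 0.014). The annotation lists 4 pseudogenes named after Cdk4, and whether reads shared with them were counted was not checked.

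Cdk6, the close relative of Cdk4, was barely counted, with 38, 21 and 16 counts in mock samples 1, 2 and 3 and 46, 8 and 10 counts in NRG1 samples. Its level was 5.08, 3.11 and 1.26 CPM in mock and 6.13, 0.90 and 0.65 CPM in NRG1 samples. In both groups the highest sample was that of replicate 1, the culture with Dcn and Thy1, and whether fibroblasts gave the counts was not tested. The log2 fold change of -0.54 had a 95% interval from -1.35 to 0.27 (edgeR adjusted p = 0.33), with pair ratios of 0.26, -1.59 and -0.79, so that both 0.393 and 1.21 times the mock level lie within it. Without replicate 1 the log2 fold change was -1.36 (adjusted p = 0.033).

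The E cyclins, which act with Cdk2 after the D cyclins, were low. Ccne1 was counted at 4.28, 3.40 and 3.31 CPM in mock samples and at 5.47, 3.26 and 2.97 CPM in NRG1 samples, from 23 to 46 counts a sample. The groups overlapped, and the log2 fold change was 0.04 (95% interval -0.52 to 0.60, edgeR adjusted p = 0.92), with pair ratios of 0.34, -0.06 and -0.15. Ccne2 was counted at 22.0, 17.6 and 13.9 CPM in mock and at 15.6, 19.9 and 13.8 CPM with NRG1. On the log2 scale the difference was -0.11 (95% interval -0.47 to 0.26, edgeR adjusted p = 0.69), with pair ratios of -0.49, 0.17 and -0.01. For neither gene was a change detectable at this depth, and a change of the size of that of Ccnd1 lies outside both intervals.

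Among the inhibitors, Cdkn1a and Cdkn1b were lower with NRG1 in each pair without passing the threshold of 0.01. Cdkn1a, the p21 gene, was counted at 60.4, 64.7 and 58.6 CPM in mock samples 1, 2 and 3 and at 54.0, 40.6 and 41.1 CPM in NRG1 samples. All NRG1 samples were below all mock samples, as for 9.94% of all genes tested. The log2 fold change was -0.45 (SE 0.13, 95% interval -0.73 to -0.17, edgeR adjusted p = 0.025). The difference was smaller in replicate 1, with a log2 ratio of -0.16, than in replicates 2 and 3, with -0.67 and -0.51. With no filter on low counts Cdkn1a passed (log2 fold change -0.46, adjusted p = 0.0076). It did not pass in DESeq2 with the block (adjusted p = 0.076). Nor did it pass in edgeR without replicate 2 (adjusted p = 0.072) or with no replicate block (0.31).

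Cdkn1b encodes p27, which accumulates in resting cells. It was counted at 206, 371 and 309 CPM in mock samples 1, 2 and 3 and at 151, 335 and 241 CPM in NRG1 samples. The cultures differed more from each other than the treatments did within a culture, and the groups overlapped. The NRG1 sample was lower in all 3 pairs, as for 30% of all genes tested, with log2 ratios of -0.45, -0.14 and -0.36. The log2 fold change was -0.32 (95% interval -0.58 to -0.06, edgeR adjusted p = 0.073). Within a library, the log2 ratio of Ccnd1 to Cdkn1b counts was 0.75, 0.18 and 1.15 in mock and 2.80, 1.72 and 2.69 in NRG1 samples. The ratio was higher with NRG1 in each pair, by 1.71 ± 0.29 on average (SD, n = 3 pairs), with an exact paired permutation p of 0.25, the smallest possible.

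Cdkn2c encodes p18, an inhibitor of Cdk4 and Cdk6. It had between 29 and 91 counts a sample, or 4.41, 7.25 and 7.17 CPM in mock samples 1, 2 and 3 and 3.87, 9.78 and 4.78 CPM in NRG1 samples. The pairs moved in both directions, with log2 ratios of -0.18, 0.42 and -0.57, and the log2 fold change was -0.12 (95% interval -0.65 to 0.40, edgeR adjusted p = 0.75).

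**Figure D3:**
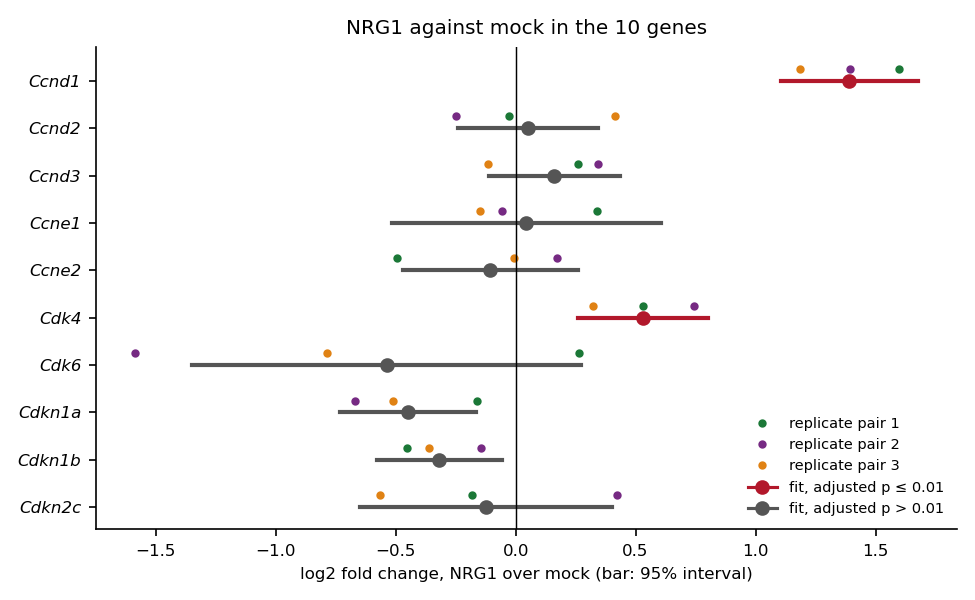
Log2 fold change of NRG1 over mock for the 10 genes from the edgeR fit (large points) with 95% intervals (bars), in red where the adjusted p was at most 0.01, and the log2 ratio of each replicate pair (small points). Ccnd1 lies apart at 1.39, Cdk4 is at 0.53, the intervals of Cdkn1a and Cdkn1b lie below 0 and those of the other 6 genes include 0.

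The genes around the 10 were read from lists of pathway genes in the same fit, where 6.31% of all genes tested rose and 5.51% fell. An unadjusted p under 0.05, in either direction, was found for 3479 of the 9740 genes. Of the other CDK inhibitors, 3 of 4 were tested (Cdkn1c, Cdkn2a and Cdkn2b) and none was called by edgeR, with 2 at an unadjusted p under 0.05 and 0 called by DESeq2. Cdkn2b, the p15 gene induced by TGF-beta, had a log2 fold change of -0.31 (adjusted p = 0.087). Among the pocket proteins and E2F factors, 9 of 13 were tested, of which 1 rose and 3 fell. Rb1, the retinoblastoma gene and substrate of the cyclin D kinases, fell from a mean of 84.8 ± 13.4 to 51.4 ± 4.03 CPM (SD over 3 samples), or on the log2 scale -0.71 (SE 0.12, adjusted p = 0.0011). Its mock samples had 75.5, 100.2 and 78.6 CPM and its NRG1 samples 46.8, 53.4 and 54.1 CPM. All NRG1 samples were thus below all mock samples, as for 9.94% of all genes tested. Rbl2, the p130 gene of resting cells, fell by 0.48 on the log2 scale (adjusted p = 0.0091).
The dimerization partners of E2F moved in opposite directions. Tfdp1 rose, with a log2 fold change of 0.57 (SE 0.12, adjusted p = 0.0031), and Tfdp2 fell, with -1.26 (SE 0.17, adjusted p = 0.00020). E2f1 itself had -0.35 (adjusted p = 0.24). The calls of Rb1 and Tfdp2 held with each replicate left out. That of Tfdp1 was lost without replicate 1 (adjusted p = 0.012) or 3 (0.015), and that of Rbl2 without replicate 1 (0.077), 2 (0.014) or 3 (0.046) and with DESeq2 (0.021).

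Of the other kinases and activators of the G1 to S step, 7 of 8 were tested, 2 rose and none fell. Cdc37, the co-chaperone that loads Cdk4 on Hsp90, rose from a mean of 236 ± 58.9 to 368 ± 86.0 CPM (SD over 3 samples), or on the log2 scale 0.64 (SE 0.13, adjusted p = 0.0023). Cdk2ap1 encodes a protein that binds Cdk2 and is not counted as an activator here. It rose by 0.56 (adjusted p = 0.0077), a call lost without replicate 2 (adjusted p = 0.030) or 3 (0.022). Cdk2 had a log2 fold change of -0.33 (adjusted p = 0.086). Of 16 ubiquitin ligase subunits and proteases that act on cyclins and their inhibitors, 14 were tested and none was called by edgeR. At an unadjusted p under 0.05, 2 of them were lower and 0 higher, and DESeq2 with the block called 0, while edgeR with no filter on low counts called 1 lower. Skp2, the subunit that recognises p27, had a log2 fold change of 0.24 (adjusted p = 0.43).

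The targets of E2F in DNA replication were mostly below the threshold, with 3 of 20 tested genes risen and none fallen. At an unadjusted p under 0.05, 8 of the 20 were higher and 1 lower, beside 3479 of the 9740 genes in either direction. At an adjusted p of at most 0.05, 6 rose and 0 fell, beside 1124 and 1136 of the 9740 genes. DESeq2 with the block called 2 of 21 higher at 0.01, beside 570 of 13129 genes. Uhrf1, a reader of hemimethylated DNA, rose from 4.54, 6.36 and 5.67 CPM in mock samples 1, 2 and 3 to 12.8, 16.6 and 16.9 CPM with NRG1, or on the log2 scale 1.49 (SE 0.19, adjusted p = 9.1e-05). Mcm5, a subunit of the replicative helicase, rose by 1.31 (SE 0.25, adjusted p = 0.0020) and Cdt1, which loads that helicase, by 1.19 (SE 0.25, adjusted p = 0.0033), a call lost without replicate 3 (adjusted p = 0.013) and with DESeq2 (0.026). All 3 were low, at 2.97 to 5.53 CPM on average in mock samples. The other helicase subunits Mcm2, Mcm3, Mcm4, Mcm6 and Mcm7 had log2 fold changes from 0.09 to 0.48 that did not pass. The median of the 20 genes was 0.20, against -0.03 for all genes. None of 18 tested genes of S, G2 and M phase was called by edgeR, and 0 had an unadjusted p under 0.05. DESeq2 with the block called 0 as well. Among these, Mki67, the usual marker of cycling cells, was at 12.4 CPM on average in mock and 12.2 CPM in NRG1 samples, with a log2 fold change of 0.06 (SE 0.18).

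Among 11 tested cyclins outside G1 entry, 1 fell. Ccng2, the cyclin G2 gene that is on in resting cells, fell from a mean of 129 ± 44.0 to 67.4 ± 32.2 CPM (SD over 3 samples), or on the log2 scale -0.99 (SE 0.12, adjusted p = 7.8e-05). It was lower in each pair, at 180, 109 and 99.1 CPM in mock samples 1, 2 and 3 and at 104, 52.8 and 45.1 CPM in NRG1 samples, and the groups overlapped because replicate 1 was higher in both.

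Of 22 transcription factors known to act on the D cyclin and CDK inhibitor genes, 6 rose and 2 fell, beside the same 6.31% and 5.51% of all genes tested. Fosl1, the AP-1 subunit Fra-1, rose from a mean of 29.6 ± 12.3 to 92.3 ± 10.4 CPM (SD over 3 samples), or on the log2 scale 1.69 (SE 0.15, adjusted p = 8.0e-06). Etv5, an ETS factor induced by ERK signalling, rose by 1.65 (SE 0.14, adjusted p = 5.2e-06). Myc, whose product binds CACGTG, was counted at 36.9, 45.6 and 59.3 CPM in mock samples 1, 2 and 3 and at 75.9, 63.8 and 92.5 CPM with NRG1. All NRG1 samples were thus above all mock samples, as for 10.2% of all genes tested. The log2 fold change of Myc was 0.72 (SE 0.13, adjusted p = 0.0017), and the call was lost without replicate 1 (adjusted p = 0.014). Fos fell by 1.61 on the log2 scale (SE 0.12, adjusted p = 2.2e-06). Egr1 fell by 1.13 (SE 0.26, adjusted p = 0.0071), a call lost without replicate 2 (adjusted p = 0.038) or 3 (0.035) and with robust empirical Bayes (0.0995). The log2 ratios of Egr1 were -0.03, -1.97 and -1.47 in pairs 1, 2 and 3, so that the samples of replicate 1 hardly differed, and the fitted value ranged from -1.70 without replicate 1 to -0.80 without replicate 2. The forkhead factors Foxo1, Foxo3 and Foxo4, which act on the p27 gene, had log2 fold changes of -0.06, -0.35 and -0.42 that did not pass. Their edgeR adjusted p-values were 0.84, 0.15 and 0.018, so that Foxo4 was the closest to the threshold.

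**Figure D4:**
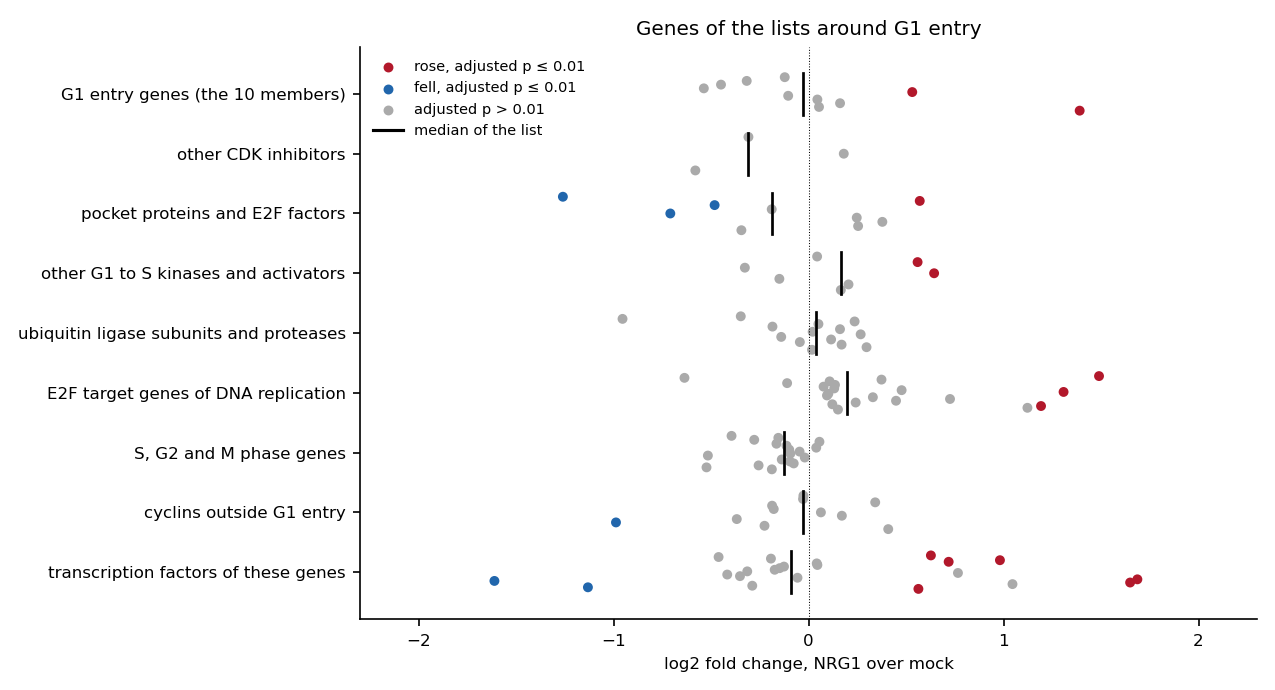
Log2 fold change of NRG1 over mock (horizontal axis) for each tested gene of the 10 G1 entry genes and of 8 pathway lists, 1 point a gene, red where it rose and blue where it fell at an adjusted p of at most 0.01, with the median of each list as a black line. The S, G2 and M phase genes have no coloured point and lie between -0.52 and 0.06, and the list medians lie between -0.31 and 0.20.

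The genes with the pattern most like that of Ccnd1 were taken by the Pearson correlation of log2 CPM over the 6 samples, among 7843 other genes of at least 10 CPM on average. These 6 points are 3 pairs that share cultures, and the correlation is a description only. The 5 highest were Smpdl3b, Trap1, Bmp7, Cdk10 and Ipo13, with r from 0.995 to 0.999. They followed Ccnd1 over the samples with changes of different size, for Bmp7, a BMP ligand, a log2 fold change of 2.06, for Smpdl3b 1.51, for Ipo13, a nuclear import receptor, 0.85, for Trap1, a mitochondrial chaperone, 0.37 and for Cdk10, a kinase of the CDK family, 0.30. Of these, Bmp7, Smpdl3b and Ipo13 passed the test, and Trap1 (adjusted p = 0.031) and Cdk10 (adjusted p = 0.094) did not. Within the 10 genes the log2 levels of Ccnd1 had r = 0.84 with Cdk4 and r = -0.86 with Cdkn1a over the same 6 samples, the highest and lowest values. With the other inhibitor genes Cdkn1b and Cdkn2c r was -0.18 and -0.01, and with the remaining genes it lay between -0.59 and 0.43.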

How the data were processed

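Poly(A) RNA of 3 mock and 3 NRG1 samples was sequenced on an Illumina instrument. Per the submitters' processing notes and methods, the authors mapped reads to rn5 with TopHat2 2.0.10 and counted them per RefSeq gene with htseq. The deposited values are raw counts, 1 file a sample. The 5 summary lines of each file were left out, and between 47.0% and 49.9% of alignments were on genes. Depth ranged from 6821590 to 15475018 counts on genes. Whether counting used strand is not given in the sources used here.

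Groups and replicate numbers came from the sample titles. Genes were filtered with filterByExpr (minimum count 10), which left 9740 of 17327, scaled by TMM and fitted with edgeR 4.0.16 (R 4.3.3) by the quasi-likelihood test, blocked on replicate number because the study paired its samples. P-values were adjusted by Benjamini-Hochberg over all genes tested and called at 0.01. SE is the log2 fold change over the square root of F, and 95% intervals use the test's degrees of freedom. Pair ratios use log2 CPM with a prior count of 2. Across genes, deviations of same-numbered samples from their group means correlated with r = 0.91, 0.67 and 0.81, and the cultures were independent. No 2 samples agreed within sampling noise (chi-square per degree of freedom at least 21.4). The fit was tested on simulated data.

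The 10 genes and the lists were chosen with earlier results of these data known. Named were the 10 genes, at most 4 called genes per list and direction, and the 5 genes most like Ccnd1. Other genes given with values are uncalled list members, chosen after their values were seen. Alternatives were no replicate block, DESeq2 1.42.0, limma-voom (limma 3.58.1), RLE, other filters and thresholds, robust empirical Bayes and leaving out each replicate. DESeq2 with no replicate block was added after the data were seen. Transcript lengths were not used. Shares, ratios between genes and levels called low are thus of reads and not corrected for length. Some genes, 1 list and 1 motif are not reported here.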

Additional observations from a re-analysis of the deposited data

How the results depend on the processing

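Main counts were 615 genes up and 537 down over all genes, 2 and 0 of the 10 G1 genes, and 13 and 10 genes of the pathway lists, a list not reported here included. With no replicate block edgeR called 0 in all 6 counts (smallest adjusted p 0.14, with 1334 genes and 2 of the 10 at an unadjusted p under 0.05), and Ccnd1 had an adjusted p of 0.20 and Cdk4 of 0.49. DESeq2 with no replicate block, added later, called 115 up and 63 down over all genes, 1 of the 10 up (Ccnd1) and 3 up and 1 down in the lists. An adjusted p of 0.05 gave 1124 up and 1136 down, 20 up in the lists and 1 of the 10 down (Cdkn1a). No low-count filter gave 857 down over all genes and 1 of the 10 down (Cdkn1a). Leaving out each replicate gave 408 to 590 up and 253 to 601 down over all genes, 8 to 10 up and 6 to 8 down in the lists, and 1 of the 10 up in each fit (Ccnd1). Without 1 replicate, uncalled genes changed sign, so that their ranges were -0.12 to 0.21 (Ccnd2), -0.11 to 0.19 (Ccne1), -0.23 to 0.085 (Ccne2) and -0.43 to 0.19 (Cdkn2c). Ccnd1 kept its call in 12 of 13 alternatives and Cdk4 in 8. The causes were not tested. Cdk6, Ccne1 and Cdkn2c had under 100 counts a sample, and the part of depth in their results was not tested.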

Other observations

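Promoter windows were available for 7479 of the genes tested, of which 6.28% rose and 5.47% fell with NRG1. Of the 739 with at least 1 E-box CACGTG, 72 rose (9.74%) and 30 fell (4.06%), with a median log2 fold change of 0.05. Of the 88 with at least 2, 9 rose and 6 fell (median -0.04), and of the 13 with at least 3, 2 rose, Cdk4 among them, and 0 fell (median -0.13). Of the 165 with the forkhead motif GTAAACA, 10 rose (6.06%) and 22 fell (13.3%), with a median log2 fold change of -0.12. Of the 321 with an E2F motif, 21 rose (6.54%) and 12 fell (3.74%). With the AP-1 motif TGANTCA, 24 of 365 rose (6.58%) and 28 fell (7.67%). With CCGGAAG, the ETS motif, 91 of 1461 rose (6.23%) and 39 fell (2.67%), and with the GC box GGGCGG 338 of 4926 rose (6.86%) and 264 fell (5.36%). With TGACG 156 of 2588 rose (6.03%) and 111 fell (4.29%), and with TGACGTCA 16 of 272 rose (5.88%) and 11 fell (4.04%). These are counts over 9 motifs looked at together, 1 of which is not reported here, without a test.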
